A study of Mus musculus with 23 samples.

Results

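The autophagy machinery is described here as 39 genes that were chosen by symbol from 7 steps of the pathway, and all 39 were rows of both the quadriceps table (12831 genes) and the epididymal fat table (16962 genes). The quadriceps libraries came from 3 no tumor, 4 KPC and 4 KPC IL6KO animals, and the epididymal fat libraries from 4 animals of each group, with 1 library each. The fat libraries carry other replicate numbers, from which it is read here that their animals were others. All hosts were unedited male C57BL/6J mice of 8 weeks. KPC mice received, in the pancreas, a single-cell clone of a mouse pancreatic tumor line that had been given a plasmid with a null guide, KPC IL6KO mice received a single-cell clone of the same line in which Il6 had been targeted, and no tumor mice were sham controls. Each tumor genotype was therefore 1 clone. All mice were euthanized at the time the KPC group showed wasting. Because the edit was in the tumor cells, Il6 counts of the host tissues do not test the group labels.

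Autophagy encloses cytoplasm, organelles or marked cargo in a double membrane, the autophagosome, which fuses with the lysosome for degradation. The ULK kinase complex starts the process, the class III PI3 kinase complex marks the membrane with a phosphoinositide, lipid carriers extend it, and 2 ubiquitin-like conjugation systems attach LC3 and GABARAP proteins to it. Cargo receptors bind both the cargo and LC3, and TFEB and TFE3 are transcription factors of lysosome and autophagy genes. In skeletal muscle, autophagy works beside the proteasome in protein turnover and is known to rise with fasting and denervation. A transcript level is not a measure of autophagic flux, which was not measured in these libraries.

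Library totals ran from 19259763 to 74907810 counts in quadriceps and from 26306377 to 56308545 in fat, and the lowest total was that of 1 no tumor quadriceps library. Levels are given as CPM, the read counts scaled to a common library size after TMM normalization. A level of 3 counts, the floor used here, equaled 0.0462 to 0.154 CPM in quadriceps and 0.0474 to 0.123 CPM in fat, so each member was above it in each library. Groups were compared with the quasi-likelihood test of edgeR, and calls required a fold change (FC) of at least 1.5 and a false discovery rate (FDR, Benjamini-Hochberg) of at most 0.05. The libraries are of bulk tissue, in which fewer cells of a type and less RNA per cell cannot be told apart. The summed level of 6 muscle fiber markers was 152000 to 192000 CPM in no tumor, 112000 to 133000 CPM in KPC and 174000 to 192000 CPM in KPC IL6KO. That of 3 fibroblast markers was 507 to 545, 153 to 248 and 295 to 410 CPM. That of the 7 leukocyte markers in the table was 26.6 to 38.3, 23.3 to 111 and 28.3 to 44.2 CPM, with the highest value in KPC mouse 3. Of that value, 79.5 CPM came from 1 marker, Cd68. The muscle fiber and fibroblast sums of KPC did not overlap those of the other groups. Of the 6 muscle fiber markers, however, 3 were called lower in KPC against no tumor and 3 were not called. All 3 fibroblast markers were called lower. The leukocyte sums of the 3 groups overlapped, with 3 of the 7 leukocyte markers called higher and 2 lower in KPC against no tumor. The part of these cell types in the results below was not tested.

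In quadriceps, KPC tumors went with higher transcripts of 26 of the 39 autophagy genes and lower transcripts of 2, Atg4c and Atg10, while 11 were not called (edgeR, FDR and FC thresholds as above). The same thresholds called 26.7% of all genes higher and 29% lower. The median log2 FC of the members was 1.13, beside -0.0338 over all genes. Leaving out the FC threshold gave 30 members higher and 3 lower, against 33.4% and 34.2% of all genes. No overlap between the 3 no tumor and 4 KPC mice was seen with higher KPC values for 30 members and lower values for 4, where all genes gave 32.3% and 33%. Under upper quartile scaling, which moved the median of all genes to -0.358, 21 members were called higher (Pik3c3, Atg3, Atg4b, Map1lc3a and Gabarapl2 were not) and 3 lower (Ulk2 was added), and 5 members that are not among the calls (Becn1, Atg9a, Atg12, Atg16l1 and Tfe3) turned from positive to negative. The calls over all genes were then 30.4% higher, compared with 48% under TMM.

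The members together took 0.348 to 0.359% of the counts of a no tumor quadriceps library, 0.787 to 0.967% in KPC and 0.354 to 0.413% in KPC IL6KO. In CPM, their sum was 3293 ± 157 in no tumor (SD, n = 3), 9350 ± 1189 in KPC (n = 4) and 3743 ± 262 in KPC IL6KO (n = 4). Without Sqstm1, the most abundant member in CPM, the sums were 2790 ± 75.8, 6161 ± 713 and 3039 ± 123 CPM. The spread among KPC mice was wide, and was not tested against that of the others. The median coefficient of variation of a member was 16.5% in KPC, compared with 4.46% in no tumor and 6.66% in KPC IL6KO. Of the 26 members called higher, KPC mouse 2 had the lowest of the 4 KPC values for 21, whereas KPC mouse 3 had the highest for 12 and KPC mouse 1 for 10. The same count was not made over all genes, so whether this order is particular to the members cannot be told.

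**Figure D1:**
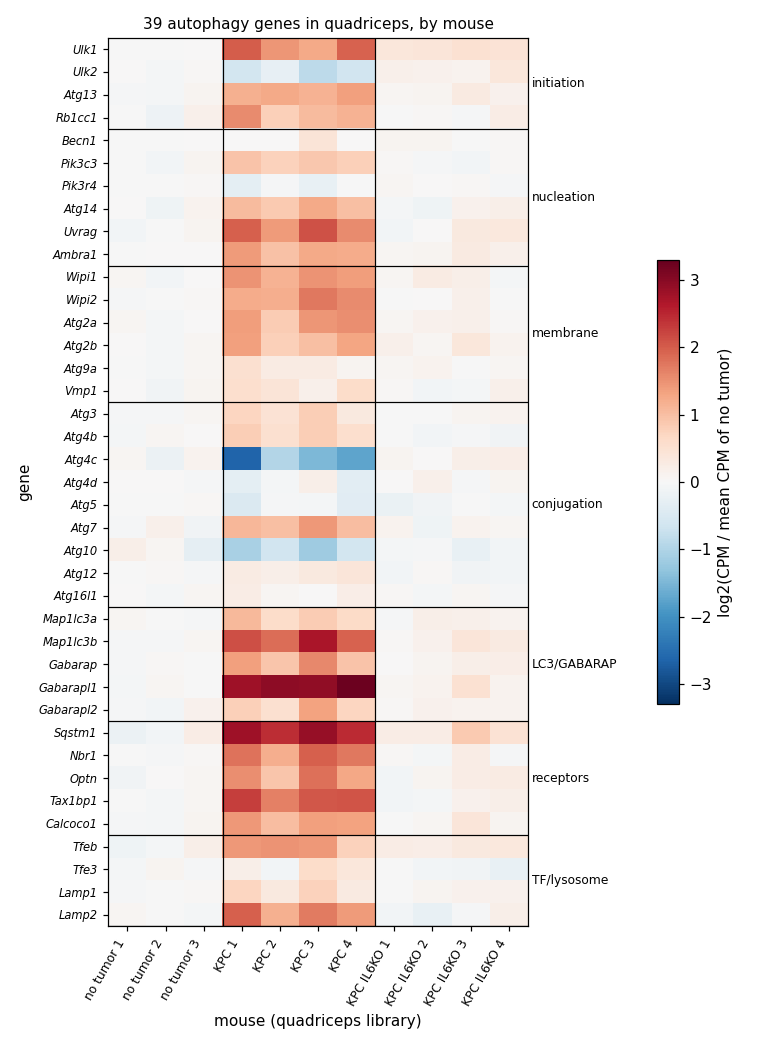
Level of each of the 39 autophagy genes (rows, grouped by step) in each quadriceps library (columns), as log2 of CPM over the mean CPM of the no tumor mice, in which red is higher and blue lower. The 4 KPC columns are red for most genes. Atg4c, Atg10 and Ulk2 are blue in all of them, and Pik3r4 and Atg5 are too, though very faintly in some mice. The KPC IL6KO columns stay pale for most genes, with Sqstm1 in mouse 3 the strongest red.

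Of the 4 genes of the ULK complex, 3 were called higher in KPC quadriceps and Ulk2 was not called. Ulk1, the kinase that starts autophagosome formation, measured 134, 134 and 136 CPM in no tumor, 534, 368, 321 and 516 CPM in KPC and 174, 179, 192 and 186 CPM in KPC IL6KO (FC 3.23, log2 FC 1.69 ± 0.17 (SE), FDR = 8.44e-06 for KPC vs no tumor). KPC values did not overlap those of either other group, and the KPC IL6KO values lay above the no tumor values. Ulk2, the closest paralog of Ulk1, was at 128, 121 and 131 CPM in no tumor, 83.2, 105, 70.1 and 81.5 CPM in KPC and 141, 139, 138 and 164 CPM in KPC IL6KO. Each KPC mouse was below all other mice for Ulk2, with a log2 FC of -0.58 against no tumor (FDR = 0.00215), which is just under the FC threshold, and -0.78 against KPC IL6KO (FDR = 0.000171), which is past it. The paralogs thus differed in sign within the same libraries.

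The other subunits rose. Atg13, the adaptor that links the kinase to its complex, measured 49.4, 48.6 and 54.3 CPM in no tumor, 115, 121, 112 and 129 CPM in KPC and 53.1, 54.2, 61.8 and 56.1 CPM in KPC IL6KO (FC 2.35, log2 FC 1.23 ± 0.10 (SE), FDR = 2.22e-06). Rb1cc1, which encodes the scaffold FIP200, measured 58.2, 51.8 and 65.1 CPM in no tumor, 172, 101, 121 and 130.3 CPM in KPC and 57.7, 59.8, 56.5 and 69.03 CPM in KPC IL6KO (FC 2.24, log2 FC 1.17 ± 0.17 (SE), FDR = 9.75e-05). KPC mouse 1 was highest and mouse 2 lowest for Rb1cc1, without overlap with the other groups.

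For nucleation of the membrane, in the class III PI3 kinase complex 4 of 6 genes were called higher. Becn1, the scaffold of the complex and a widely used autophagy marker, was not among them, with 63.9, 63.4 and 65.1 CPM in no tumor, 64.8, 64.2, 85.98 and 65.2 CPM in KPC and 67.8, 67.8, 63.8 and 65.3 CPM in KPC IL6KO (FC 1.09, log2 FC 0.13 ± 0.11 (SE), FDR = 0.329). Its 95% interval ran from a log2 FC of -0.12 to 0.37, which excludes an FC of 1.5, and all KPC mice but mouse 3 lay within the range of the other groups. Its small difference turned negative under upper quartile scaling. Pik3r4, the regulatory subunit VPS15, was not called either (log2 FC -0.15, FDR = 0.224). The subunits that direct the complex to different membranes were called. Uvrag, found in the complex that acts on endosomes and late steps, measured 12.4, 13.1 and 14.1 CPM in no tumor, 52.2, 35.04, 56.4 and 38.7 CPM in KPC and 12.3, 13.2, 16.4 and 16.96 CPM in KPC IL6KO (FC 3.45, log2 FC 1.79 ± 0.19 (SE), FDR = 1.05e-05). Atg14, the subunit specific to autophagosome formation, was at 12.3, 10.97 and 13.1 CPM in no tumor, 25.1, 22.03, 28.9 and 24.3 CPM in KPC and 11.7, 10.99, 13.3 and 13.7 CPM in KPC IL6KO (FC 2.07, log2 FC 1.05 ± 0.13 (SE), FDR = 3.16e-05).

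For both, the lowest KPC value was above the highest value of any other mouse. Ambra1, a Beclin-binding regulator, was at 31.8, 32.3 and 32.1 CPM in no tumor, 84.3, 62.6, 76.01 and 74.4 CPM in KPC and 33.7, 34.1, 39.5 and 35.9 CPM in KPC IL6KO (FC 2.32, log2 FC 1.21 ± 0.11 (SE), FDR = 5.31e-06). Pik3c3, the catalytic subunit VPS34, had a smaller rise, from 21.4 ± 1.32 CPM in no tumor (SD, n = 3) to 38.5 ± 2.15 CPM in KPC (n = 4; log2 FC 0.85, FDR = 1.29e-05).

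Membrane supply and expansion had 4 of 6 genes called higher in KPC against no tumor. All 6 had KPC values above those of all no tumor mice (32.3% of all genes did). Against KPC IL6KO this held for 4 (31.2% of all genes), while Atg9a and Vmp1 overlapped. Wipi1 and Wipi2 encode phosphoinositide-binding proteins that recruit the conjugation machinery. Wipi1 was at 64, 58.1 and 61.99 CPM in no tumor, 172, 136, 171 and 159 CPM in KPC and 63.6, 74.6, 69.6 and 58.6 CPM in KPC IL6KO (FC 2.6, log2 FC 1.38 ± 0.12 (SE), FDR = 3.62e-06), and Wipi2 at 45.2, 46.5 and 47.9 CPM in no tumor, 108, 106, 155 and 136 CPM in KPC and 46.3, 47.2, 52.01 and 45.7 CPM in KPC IL6KO (FC 2.72, log2 FC 1.44 ± 0.14 (SE), FDR = 6.34e-06). The 2 genes rose by similar amounts. Atg2a and Atg2b encode lipid-transfer proteins. Atg2a measured 47.4, 43.3 and 45.8 CPM in no tumor, 118, 81.03, 124 and 132 CPM in KPC and 47.3, 49.9, 51.02 and 46.6 CPM in KPC IL6KO (FC 2.5, log2 FC 1.32 ± 0.15 (SE), FDR = 1.78e-05), and Atg2b measured 32.4, 31 and 33.7 CPM in no tumor, 82.7, 56.02, 64.5 and 80.1 CPM in KPC and 36.2, 33.9, 41.8 and 34.8 CPM in KPC IL6KO (FC 2.19, log2 FC 1.13 ± 0.14 (SE), FDR = 3.9e-05). For these transporters KPC mouse 2 was the lowest of its group. Atg9a, a scramblase in the vesicles that seed the membrane, and Vmp1, an endoplasmic reticulum protein, passed the FDR but not the FC threshold (log2 FC 0.30, FDR = 0.0321, and 0.45, FDR = 0.00719).

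Of the 9 genes of conjugation enzymes, 3 were called higher, 2 lower and 4 not called, with a median log2 FC of 0.14. Over all genes 26.7% were called higher and 29% lower, so these counts were near the shares of all genes. Atg7, the E1-like enzyme that both conjugation systems share, measured 10.04, 11.5 and 9.48 CPM in no tumor, 22.2, 20.6, 27.98 and 21.1 CPM in KPC and 11.2, 9.38, 11.2 and 10.7 CPM in KPC IL6KO (FC 2.21, log2 FC 1.15 ± 0.14 (SE), FDR = 2.75e-05). Atg3, the E2-like enzyme for LC3, rose by an FC of 1.51 (FDR = 0.000906), and Atg10, the E2-like enzyme for ATG12, fell to an FC of 0.552 (FDR = 0.00115). Atg3 stood at the FC threshold, and without no tumor mouse 2, KPC mouse 1 or KPC mouse 3 it was no longer called. ATG4 proteases trim LC3 and GABARAP before conjugation and release them from membranes. The 3 protease genes among the members did not move alike. Atg4c, the lowest of all members per kb of exon in KPC quadriceps, measured 6.49, 5.41 and 6.71 CPM in no tumor, 0.986, 3.201, 2.23 and 1.86 CPM in KPC and 6.58, 6.26, 7.03 and 7.25 CPM in KPC IL6KO (FC 0.334, log2 FC -1.58 ± 0.29 (SE), FDR = 0.000519). Each KPC mouse was below every other mouse, and KPC mouse 1 was the lowest. Atg4b rose from 29.8 ± 1.24 to 47.8 ± 5.102 CPM (log2 FC 0.68, FDR = 0.000118), and Atg4d was at 64.9 ± 1.36 CPM in no tumor and 59.9 ± 10.5 CPM in KPC (log2 FC -0.12, FDR = 0.436). The genes of the ATG12, ATG5 and ATG16L1 conjugate, the ligase for LC3, were not called (log2 FC 0.30, -0.22 and 0.14; FDR = 0.0101, 0.141 and 0.205).

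All 5 genes of the ubiquitin-like LC3 and GABARAP proteins were called higher, with a median log2 FC of 1.22. Gabarapl1 (chr6:129533160-129542346, GRCm38, plus strand) had the largest rise of the 39 members, at 44.4, 48.97 and 46.2 CPM in no tumor, 324, 359, 352 and 439.8 CPM in KPC and 48.2, 50.5, 66.1 and 49.99 CPM in KPC IL6KO (FC 7.93, log2 FC 2.99 ± 0.15 (SE), FDR = 3e-07). The lowest KPC value was far above the highest of the other 7 mice. Map1lc3b (chr8:121590361-121598760, plus strand), which encodes the widely used marker LC3B, measured 174, 172 and 186 CPM in no tumor, 781, 639.5, 1150 and 680.5 CPM in KPC and 182, 196, 234 and 216 CPM in KPC IL6KO (FC 4.58, log2 FC 2.20 ± 0.20 (SE), FDR = 4.3e-06). KPC mouse 3 stood above the other 3 KPC mice, of which each exceeded every mouse of the other groups. Gabarap was at 95.9, 101 and 98.4 CPM in no tumor, 251, 184, 294 and 187 CPM in KPC and 99.1, 105, 113 and 115 CPM in KPC IL6KO (FC 2.33, log2 FC 1.22 ± 0.16 (SE), FDR = 5e-05). The rises of Gabarapl2 (log2 FC 0.87, FDR = 0.000672) and Map1lc3a (log2 FC 0.80, FDR = 0.000166) were smaller. All levels per kb in this report rest on exon length merged over isoforms, such as 7.52 kb for Map1lc3b and 1.84 kb for Gabarap. Map1lc3b was above Gabarap in CPM but below it per kb in no tumor, so orders per kb depend on these lengths. Per kb of merged exon, the order in no tumor was Map1lc3a (165 ± 5.94 CPM per kb), Gabarap (53.5 ± 1.4), Map1lc3b (23.6 ± 1.05), Gabarapl1 (23.1 ± 1.14) and Gabarapl2 (19 ± 1.67; SD, n = 3), and Map1lc3b and Gabarapl1 were within 1 SD of each other. In KPC quadriceps it was Map1lc3a (287 ± 43.5), Gabarapl1 (183 ± 24.7), Gabarap (124 ± 28.8), Map1lc3b (108 ± 30.9) and Gabarapl2 (34.9 ± 9.04; SD, n = 4), in which Gabarap and Map1lc3b were within 1 SD.

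**Figure D2:**
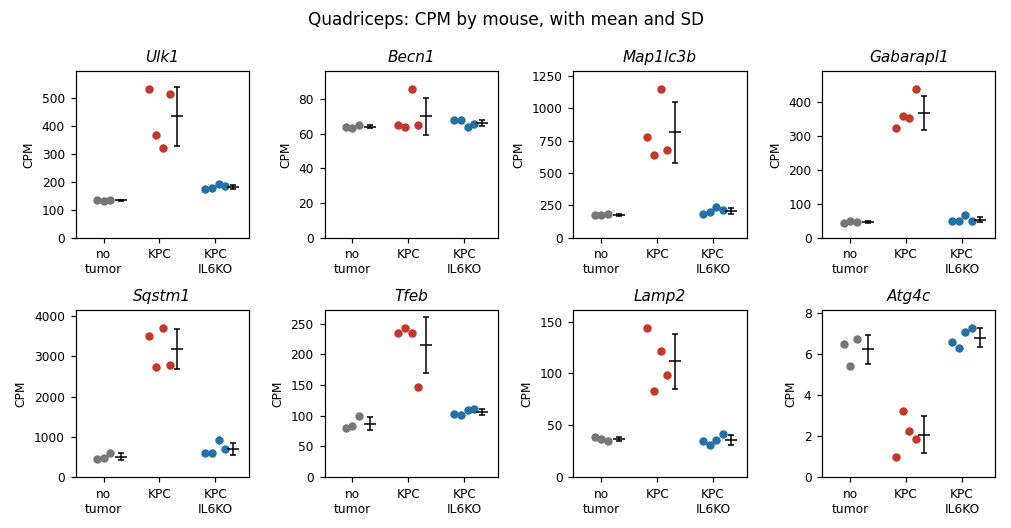
Quadriceps CPM of 8 autophagy genes by group; each point is 1 mouse, and the bars are the mean and SD of each group (n = 3 for no tumor, 4 for the others). KPC mice lie above all others for Ulk1, Map1lc3b, Gabarapl1, Sqstm1, Tfeb and Lamp2, below all others for Atg4c, and in the range of the others except for mouse 3 for Becn1.

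All 5 genes of cargo receptors were called higher, with a median log2 FC of 1.71. Sqstm1 (chr11:50199366-50210827, minus strand), which encodes the ubiquitin-binding receptor p62, measured 443, 469.8 and 598 CPM in no tumor, 3506, 2743, 3709 and 2797 CPM in KPC and 599.6, 594, 918 and 704 CPM in KPC IL6KO (FC 6.33, log2 FC 2.66 ± 0.20 (SE), FDR = 1.78e-06). Per kb it was at 150.0 ± 24.7 CPM in no tumor (SD, n = 3), within 1 SD of Lamp1 and Map1lc3a above it, and ranked first among the members in both tumor groups, at 949 ± 146 CPM per kb in KPC and 209 ± 45 in KPC IL6KO (n = 4), where Lamp1 at 184 ± 8.02 was within 1 SD of it. KPC IL6KO mouse 3 had the highest Sqstm1 level among the 7 mice outside the KPC group. Tax1bp1, a receptor for ubiquitinated protein and bacteria, was at 72.3, 69.5 and 75.8 CPM in no tumor, 351, 229.5, 301 and 304 CPM in KPC and 68.6, 69.9, 79.9 and 82.8 CPM in KPC IL6KO (FC 4.09, log2 FC 2.03 ± 0.15 (SE), FDR = 1.37e-06). Nbr1, which acts with p62 on ubiquitinated cargo, was at 102, 101 and 106 CPM in no tumor, 357, 238, 405 and 342 CPM in KPC and 106, 97.7, 123 and 100.4 CPM in KPC IL6KO (FC 3.26, log2 FC 1.71 ± 0.17 (SE), FDR = 6.94e-06). Both separated the KPC mice from all others. Optn, which encodes optineurin, a receptor for damaged mitochondria, was at 74.6, 81.5 and 84.3 CPM in no tumor, 233, 151, 281 and 193 CPM in KPC and 75.1, 85.9, 94.2 and 96.3 CPM in KPC IL6KO (FC 2.68, log2 FC 1.42 ± 0.19 (SE), FDR = 5.04e-05). Calcoco1, a receptor for endoplasmic reticulum, was at 128, 126 and 138 CPM in no tumor, 354, 264, 336 and 326 CPM in KPC and 131, 137, 172 and 138 CPM in KPC IL6KO (FC 2.45, log2 FC 1.29 ± 0.13 (SE), FDR = 9.25e-06). For all 5 receptors KPC mouse 2 was the lowest of the KPC mice.

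Among transcription factors and lysosome membrane proteins, Tfeb and Lamp2 were called higher, while Tfe3 and Lamp1 were not. Tfeb, a master regulator of lysosome genes, measured 79.2, 82.8 and 98.9 CPM in no tumor, 235, 243, 235 and 148 CPM in KPC and 103, 101, 109 and 111 CPM in KPC IL6KO (FC 2.48, log2 FC 1.31 ± 0.17 (SE), FDR = 4.08e-05). KPC mouse 4 was far below the other 3 KPC mice, yet above all mice of the other groups. Tfe3, a related factor, had log2 FC 0.30, FDR = 0.104. LAMP1 and LAMP2 are the main glycoproteins of the lysosome membrane, and LAMP2 is needed for autophagosome fusion and, as LAMP2A, for chaperone-mediated autophagy. Lamp2 was at 38.6, 36.8 and 35.04 CPM in no tumor, 144, 83.4, 121 and 98.1 CPM in KPC and 34.5, 31.1, 35.98 and 41.7 CPM in KPC IL6KO (FC 3.03, log2 FC 1.60 ± 0.18 (SE), FDR = 1.58e-05). Lamp1 was at 449.7, 461 and 478 CPM in no tumor, 754, 578, 778 and 573 CPM in KPC and 463, 495, 507 and 510.0 CPM in KPC IL6KO (FC 1.45, log2 FC 0.53 ± 0.13 (SE), FDR = 0.00305), so that KPC and no tumor did not overlap but the FC stayed under 1.5. Per kb, Lamp1 remained far above Lamp2 in both groups (173 ± 5.41 and 3.85 ± 0.186 CPM per kb in no tumor, n = 3, with ranks of 3 and 22 among the 39 members in KPC).

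**Figure D3:**
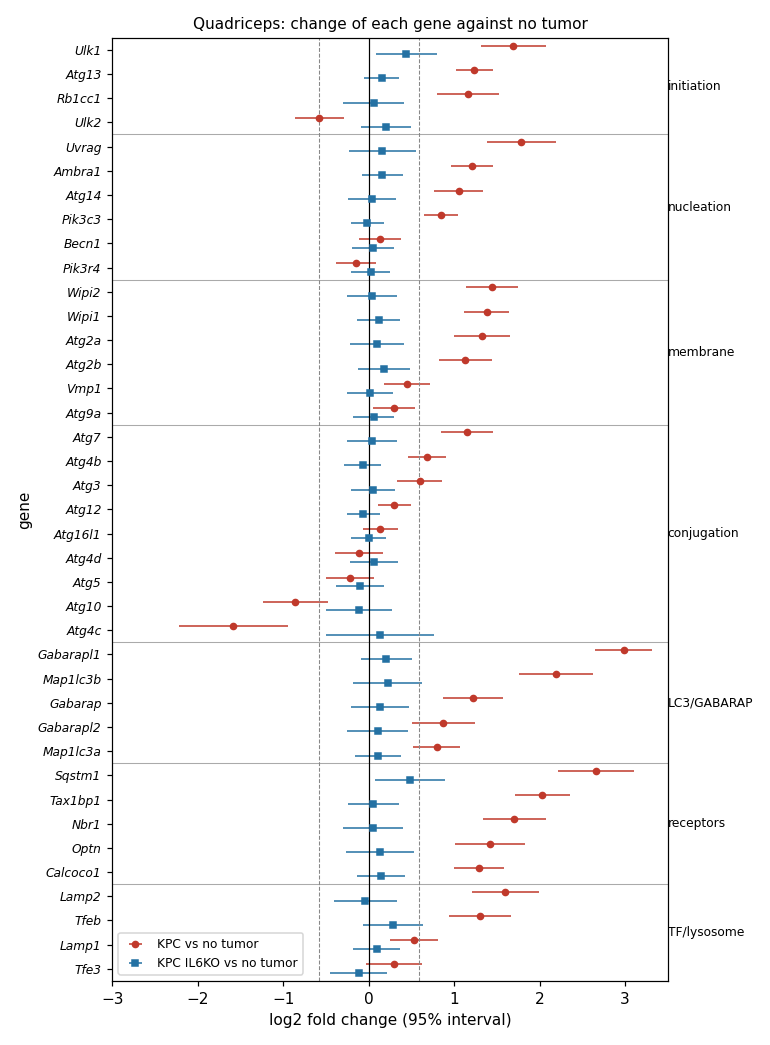
Log2 FC of each of the 39 autophagy genes in quadriceps, with 95% intervals, for KPC (red circles) and KPC IL6KO (blue squares) against no tumor; dashed lines mark an FC of 1.5. The 26 called rises in KPC lie right of the dashed line, Atg4c and Atg10 lie left of it, and no KPC IL6KO point passes either line.

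Promoter sequence was searched in the RefSeq windows from 250 bases before to 50 after each start (GRCm38.p6), which were found for 33 of the 39 members, on both strands. TCACGTG, which lies within the element that TFEB and TFE3 bind and contains the E-box CACGTG, was in the windows of 4 members (12.1%; Atg14, Atg3, Atg7 and Lamp1), compared with 4.29% of the genes in the table. The plain E-box was in 5 members (15.2%, against 8.09%), and the FoxO motif GTAAACA in 0 (against 4.05%). TTCNNNGAA, the form of site that STAT factors bind, was in 4 (12.1%, against 9.55%; Wipi1, Gabarap, Gabarapl1 and Nbr1). Lamp1 and Atg3, the members with most TCACGTG matches, are shown with the match in capitals, and Gabarapl1, the member with the largest rise, with its TTCNNNGAA match in capitals. Each stretch stops before the first annotated base of the gene and is on the plus strand, with Lamp1 at chr8:13158911-13159160, Atg3 at chr16:45158579-45158784 and Gabarapl1 at chr6:129532942-129533159.
Lamp1: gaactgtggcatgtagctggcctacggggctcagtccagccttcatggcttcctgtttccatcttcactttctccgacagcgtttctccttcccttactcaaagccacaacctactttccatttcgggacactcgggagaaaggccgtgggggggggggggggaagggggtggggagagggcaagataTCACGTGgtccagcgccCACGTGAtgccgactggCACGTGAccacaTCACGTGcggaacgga
Atg3: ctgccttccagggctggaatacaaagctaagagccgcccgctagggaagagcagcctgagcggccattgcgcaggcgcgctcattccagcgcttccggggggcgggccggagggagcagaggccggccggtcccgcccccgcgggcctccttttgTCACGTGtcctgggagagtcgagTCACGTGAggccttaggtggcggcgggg
Gabarapl1: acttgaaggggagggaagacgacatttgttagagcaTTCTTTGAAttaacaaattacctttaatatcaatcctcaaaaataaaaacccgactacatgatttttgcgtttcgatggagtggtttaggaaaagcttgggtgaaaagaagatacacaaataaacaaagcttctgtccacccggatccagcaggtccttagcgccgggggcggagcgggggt
The 4 places in Lamp1 began 62, 45, 28 and 16 bases before the RefSeq start, and the 2 in Atg3 began 95 and 72 bases before it. The 4 members with TCACGTG had FCs of 2.21 (Atg7), 2.07 (Atg14), 1.51 (Atg3) and 1.45 (Lamp1) in KPC quadriceps. The motif counts describe these windows only, and binding was not measured.

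For the loss of tumor Il6, KPC was compared with KPC IL6KO quadriceps and KPC IL6KO with no tumor quadriceps. Because the tumor genotypes were different clones, the edit cannot be told apart from other differences between the clones. The paper reports that KPC tumors were larger than those of the edited clone, and that tumor mass did not correlate with quadriceps mass. The part of tumor size in the values below was not tested. KPC was higher than KPC IL6KO for 25 members and lower for 3, Atg4c, Atg10 and Ulk2, where 26.4% of all genes were called higher and 27.3% lower. The median log2 FC was 1.01 over the members and -0.0103 over all genes. The 4 KPC and 4 KPC IL6KO mice did not overlap for 28 members with higher and 3 with lower KPC values, against 31.2% and 30.8% of all genes. Under upper quartile scaling 21 members were higher and 3 lower, and 30.9% of the calls over all genes were upward, compared with 49.1% under TMM. This comparison shares its KPC mice with that against no tumor, so the values are given side by side. Gabarapl1 had a log2 FC of 2.78 ± 0.14 (SE) against KPC IL6KO and 2.99 ± 0.15 against no tumor, Sqstm1 2.18 ± 0.18 and 2.66 ± 0.20, and Tax1bp1 1.98 ± 0.13 and 2.03 ± 0.15. For Map1lc3b the values were 1.97 ± 0.18 and 2.20 ± 0.20. Ulk1 had 1.25 ± 0.15 and 1.69 ± 0.17, and Tfeb 1.02 ± 0.15 and 1.31 ± 0.17.

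Against no tumor, KPC IL6KO quadriceps had 0 members called by edgeR's quasi-likelihood test, which called 0% of all genes. The likelihood ratio test of edgeR and DESeq2 also called 0 members, and 0.74% and 0.748% of all genes in either direction. At an unadjusted p under 0.05, 2 members were higher (2.19% of all genes) and 0 lower (4.72%). These were Sqstm1 (log2 FC 0.48 ± 0.18, SE; FDR = 0.58; edgeR) and Ulk1 (0.44 ± 0.16; FDR = 0.57; edgeR). Values did not overlap for 5 members with higher KPC IL6KO levels (Ambra1, Atg2b, Tfeb, Ulk1 and Ulk2; 7.54% of all genes) and 1 with lower levels (Atg5; 8.01%). For 34 of the 39 members the 95% interval of the log2 FC excluded an FC of 1.5 in both directions. It reached that size for Sqstm1 (0.08 to 0.89), Ulk1 (0.08 to 0.80), Atg4c (-0.50 to 0.76), Tfeb (-0.07 to 0.64) and Map1lc3b (-0.18 to 0.63).

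Genes beside the 39 were taken from 5 lists of the same pathway. In KPC against no tumor quadriceps, 11 of 24 upstream regulators were called higher and 1 lower, 8 and 0 of 15 V-ATPase genes, 7 and 0 of 13 genes of autophagosome fusion, 7 and 1 of 14 selective receptors, and 5 and 2 of 17 other autophagy genes, where 26.7% of all genes were called higher and 29% lower. Among the regulators, Sesn1, an inhibitor of mTORC1, had a log2 FC of 4.24 (FDR = 1.24e-06), Foxo1, a transcription factor of muscle atrophy genes, 2.82 (FDR = 1.81e-05) and Sesn3 -0.97 (FDR = 0.00155). In the V-ATPase, the proton pump of the lysosome, Atp6v1h had 3.13 (FDR = 9.11e-07) and Atp6v0e 1.52 (FDR = 1.37e-06). Plekhm2, a lysosome adaptor, had 2.02 (FDR = 2.22e-06) and Snap29, a SNARE of fusion, 1.46 (FDR = 4.61e-06). Of the selective receptors, the endoplasmic reticulum receptor Fam134b had 4.94 (FDR = 1.05e-06), with 3918, 1888, 2022 and 2431 CPM in the KPC mice. The mitochondrial receptor Bnip3 had 3.20 (FDR = 1.37e-06) and Fundc1, another one, -0.65 (FDR = 0.00034). Trp53inp1 and Trp53inp2, paralogs that bind LC3 and GABARAP proteins, went in opposite directions (3.09, FDR = 6.19e-05, and -2.27, FDR = 1.24e-06). Zfyve1, a marker of the sites where autophagosomes form, had 2.14 (FDR = 5.9e-06), and Atg101, a partner of Atg13 in the ULK complex, -0.70 (FDR = 0.0102). In KPC IL6KO against no tumor 0 genes of these 5 lists were called.

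In epididymal fat, none of the 39 members was called in any of the 3 comparisons by edgeR's quasi-likelihood test, which called 0% of all genes in each. The likelihood ratio test called 0 members in each, and 2.43% of all genes in KPC against no tumor, 1.23% in KPC IL6KO against no tumor and 0.389% between the tumor groups. DESeq2 called 1 member, Vmp1, in KPC against no tumor (3.45% of all genes) and 0 in the other comparisons (1.69% and 0.737%). The members took 0.46 to 0.5% of the counts in no tumor fat, 0.47 to 0.554% in KPC and 0.402 to 0.486% in KPC IL6KO. Their median log2 FC in KPC against no tumor was -0.151, where all genes had -0.103. The SE of a member's log2 FC in KPC against no tumor was larger in fat, with a median of 0.194 compared with 0.138 in quadriceps. For 24 of the 39 members its 95% interval in fat reached an FC of 1.5. The median coefficient of variation of a member in fat was 17.7% in no tumor, 12.9% in KPC and 18.9% in KPC IL6KO. In KPC it was thus below the 16.5% of quadriceps, and in the other groups above the quadriceps value.

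The fat libraries held other tissue to varying degrees. The summed level of 8 epididymis markers was 13500 to 84800 CPM in no tumor, 40300 to 65000 CPM in KPC and 738 to 87800 CPM in KPC IL6KO. That of 6 adipocyte markers was 993 to 18100, 1680 to 8480 and 2650 to 10800 CPM, that of 7 leukocyte markers 91.7 to 291, 314 to 493 and 152 to 1350 CPM, and that of 6 muscle fiber markers 4.86 to 266, 2.16 to 5.24 and 93.1 to 2240 CPM. With the epididymis marker Gpx5 as a covariate, the log2 FC turned sign for 6 of the 39 members in KPC against no tumor, 7 in KPC IL6KO against no tumor and 17 between the tumor groups. The part of the other tissues in the members' levels in fat was not tested.

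At an unadjusted p under 0.05 in KPC against no tumor fat, 1 member was higher (6.26% of all genes) and 6 were lower (5.9%). No overlap between groups was seen for 1 member with higher KPC values (6.52%) and 7 with lower values (4.39%). Vmp1, an endoplasmic reticulum protein of membrane expansion, measured 154, 142, 132 and 104 CPM in no tumor, 340.0, 223, 165 and 237 CPM in KPC and 227, 208, 143 and 193 CPM in KPC IL6KO (log2 FC 0.86 ± 0.24, SE; FDR = 0.234; edgeR). Each KPC mouse was above each no tumor mouse. Vmp1 (chr11:86583865-86683836, GRCm38, minus strand) spans the annotated gene of Mir21a on the same strand, and the 2 cannot be told apart by these counts where they overlap. Map1lc3a was at 59.5, 105, 60.3 and 90.2 CPM in no tumor, 44.5, 40.3, 46.6 and 32.9 CPM in KPC and 41.8, 59.8, 100.5 and 59.1 CPM in KPC IL6KO (log2 FC -0.94 ± 0.28; FDR = 0.255; edgeR). Its KPC values were all below those of no tumor, opposite in sign to its rise in quadriceps.

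Ulk2 was at 94.8, 118, 85.4 and 123 CPM in no tumor, 64.4, 67, 75.6 and 73.1 CPM in KPC and 56.7, 85.96, 107 and 91.95 CPM in KPC IL6KO (log2 FC -0.59 ± 0.19; FDR = 0.287; edgeR). The ubiquitin-like gene Atg12 measured 88.03, 72.4, 73.5 and 67.6 CPM in no tumor, 55.1, 59.1, 49.7 and 56.7 CPM in KPC and 46.95, 82.3, 62.9 and 58.5 CPM in KPC IL6KO (log2 FC -0.45 ± 0.17; FDR = 0.337; edgeR). No KPC mouse reached the no tumor range for either gene. Optn was at 89.4, 69.2, 51.5 and 51.4 CPM in no tumor, 46.5, 51.6, 41.1 and 38.9 CPM in KPC and 39.1, 58.5, 39.3 and 46.2 CPM in KPC IL6KO (log2 FC -0.55 ± 0.21; FDR = 0.342; edgeR). Rb1cc1 was at 99, 86.9, 93.4 and 148 CPM in no tumor, 70.02, 74.99, 91.1 and 82.8 CPM in KPC and 69.4, 80.7, 77.4 and 76.1 CPM in KPC IL6KO (log2 FC -0.42 ± 0.17; FDR = 0.369; edgeR), and for these 2 genes the groups overlapped. In KPC IL6KO against no tumor fat, Vmp1 was higher at an unadjusted p under 0.05 (8.17% of all genes were), and Optn and Rb1cc1 were lower (1.17%). Between the tumor groups 0 members were higher in KPC (0.778%) and 4 lower (Atg4d, Map1lc3a, Tfeb and Wipi2; 5.48%).

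**Figure D4:**
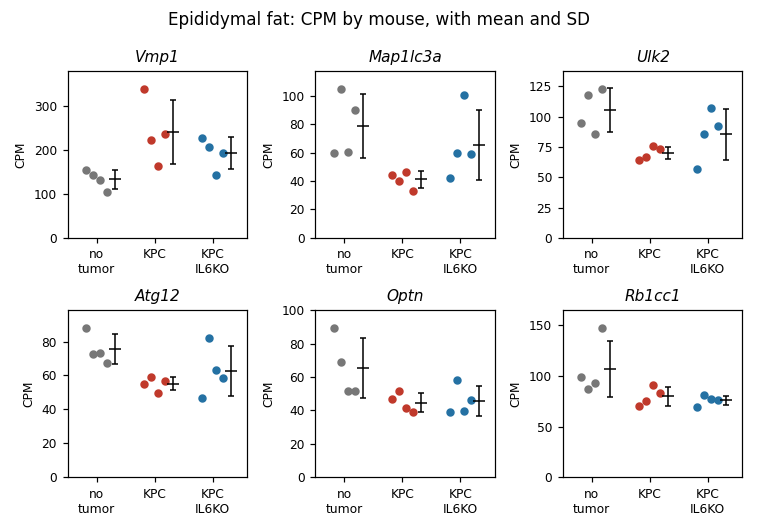
Epididymal fat CPM of the 6 autophagy genes with the smallest p in KPC against no tumor; each point is 1 mouse, and the bars are the mean and SD of 4 mice a group. KPC mice lie above the no tumor mice for Vmp1 and below them for Map1lc3a, Ulk2 and Atg12, and overlap them for Optn and Rb1cc1.

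Fat and quadriceps differed in the order of the members' levels. Per kb of exon, Lamp1 led in no tumor fat with 391 ± 45.1 CPM per kb, followed by Gabarap with 164 ± 16.2, Sqstm1 with 91.1 ± 12.2 and Gabarapl1 with 82.9 ± 20.4 (SD, n = 4), of which Sqstm1 and Gabarapl1 were within 1 SD of each other. Lamp2 was at 47.4 ± 12.3 CPM per kb in no tumor fat. Tfeb, the lowest member there, was at 2.33 ± 0.601 CPM per kb. These levels depend on the merged exon lengths, come from tables normalized separately and are not compared by a test.

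Whether the KPC effect differed between the tissues was tested in 1 fit of all 23 libraries over the 12599 genes of both tables. For KPC against no tumor, the log2 FC was higher in quadriceps than in fat for 25 members and lower for 1, Atg4c, where 18.1% of all genes were higher and 18.8% lower. The difference of log2 FCs, quadriceps minus fat, was 2.72 ± 0.30 for Gabarapl1 (SE; FDR = 3.24e-06), 2.59 ± 0.32 for Sqstm1 (FDR = 7.9e-06), 2.04 ± 0.19 for Tax1bp1 (FDR = 5.94e-07) and 1.62 ± 0.34 for Map1lc3a (FDR = 0.00119; edgeR). For Atg4c it was -1.52 ± 0.49 (FDR = 0.02). These differences come from the joint fit, which normalized the tissues together, and need not equal the difference of the values from the fits of each tissue. Ulk2, with -0.58 in quadriceps and -0.59 in fat in the separate fits, had a difference of -0.09 ± 0.26 in the joint fit (FDR = 0.796), and Vmp1 had -0.52 ± 0.25 (FDR = 0.107). For KPC against KPC IL6KO, 24 members were higher in quadriceps and 2 lower, Atg4c and Atg10, against 17.2% and 14.4% of all genes. For KPC IL6KO against no tumor 0 members and 0% of all genes were called, with 3 members and 1003 of all genes at an unadjusted p under 0.05, and 0 members were called by limma voom or the likelihood ratio test. Tissue cannot be told apart from the mice, the amount of input RNA, the extraction and library kits and the sequencing. Quadriceps and fat were extracted, prepared and sequenced separately and, by their replicate numbers, came from different mice. The joint fit treated the mice as different.

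**Figure D5:**
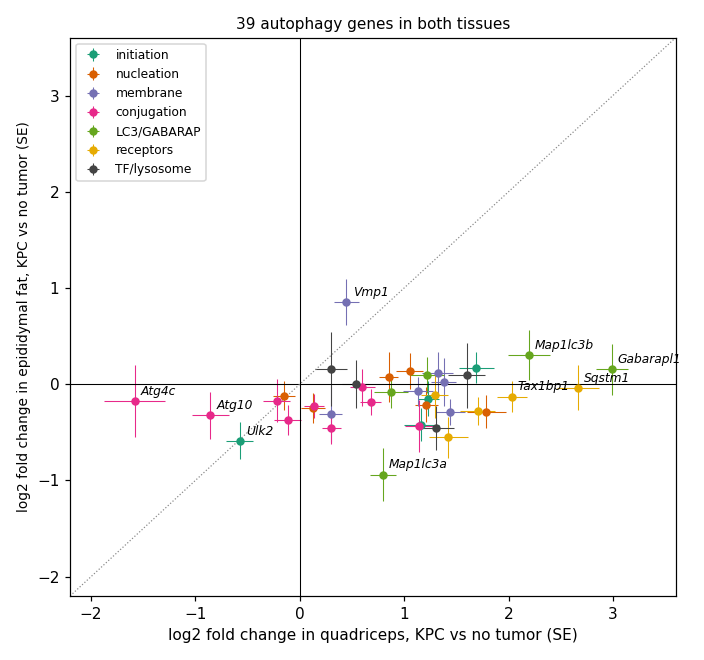
Log2 FC of each of the 39 autophagy genes for KPC against no tumor in quadriceps (horizontal axis) and epididymal fat (vertical axis), with SE bars, colored by step; the dotted line marks equal change. Most points spread along the horizontal axis up to 2.99 for Gabarapl1, while the fat values lie between -0.94 (Map1lc3a) and 0.86 (Vmp1).

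The annotated spans of 8 members overlap a protein-coding gene on the other strand (Becn1 with Cntd1, Map1lc3b with Zcchc14, Sqstm1 with Mrnip, Lamp1 with Grtp1, Atg2b with Gskip, Atg9a with Ankzf1, Atg4b with Thap4 and Atg4d with Kri1), and Map1lc3b also overlaps Gm20388 on its own strand. The strand setting of the counting was not given in the sources used here, so reads of such pairs may not be told apart where they overlap.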

How the data were processed

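RNA was sequenced from quadriceps (11 libraries) and epididymal fat (12 libraries). For each tissue the authors deposited a table of raw counts (reads per gene), made with STAR and featureCounts 1.5.1 (Subread) on mm10 after FastQC; edgeR 3.12.1 is also named in the submitters' notes. Their methods name TruSeq Nano DNA and Stranded mRNA kits, and the labels TruSeq RNA Access. They removed 1 no tumor quadriceps library, which was not analysed here. Samples were grouped by their titles.

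Each tissue was fitted on its own, with all 3 groups, in edgeR 4.0.16 (R 4.3.3; TMM, filterByExpr, which removed 0 genes, glmQLFit and glmQLFTest), with FDRs adjusted over all genes of the table. The difference between tissues was a contrast in 1 fit of 23 libraries. Alternatives were the likelihood ratio test, DESeq2 1.42.0, limma 3.58.1 (voom), other scalings, filters, a replicate block, Gpx5 as a covariate and leaving out each library. The scripts were tested on simulated data. Exon lengths come from GENCODE M21 (GRCm38), merged over isoforms, and promoter windows from RefSeq (GRCm38.p6), read with Python 3.11.15; figures were drawn with matplotlib 3.10.9. Floors cover counting error only.

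Genes with values for each mouse were members called in KPC against no tumor quadriceps with a log2 FC of at least 1 in size, Ulk1, Becn1, Map1lc3b, Sqstm1, Tfeb, Lamp1 and Lamp2, and the 6 members with the smallest p in fat; from each other list, the called genes with the 2 largest rises and falls. The members, lists and tests were chosen with earlier results of these data known. Of the listed genes, Rubcn, Atp6v0c and Calcoco2 were in neither table and Atg9b not in that of quadriceps. Libraries of a group were checked for duplicates, and the lowest chi-square per degree of freedom of a pair was 28.9 in quadriceps and 84.3 in fat. The replicate numbers name different mice.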

Additional observations from a re-analysis of the deposited data

Results flagged for a closer look

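In groups of 4 mice, the highest or lowest value was tested for distance from the others by Dixon's ratio over 66 groups of members with values for each mouse, of which 3 passed; chance gives about 1 in 20. Tfeb in quadriceps of KPC mouse 4 was 147.5 CPM, against 235 to 243 CPM in the other 3 KPC mice. Gabarapl1 in quadriceps of KPC IL6KO mouse 3 was 66.1 CPM, against 48.3 to 50.6 CPM in the others. Becn1 in quadriceps of KPC mouse 3 was 86.0 CPM, against 64.2 to 65.2 CPM in the others.

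The effect of KPC against no tumor differed between quadriceps and fat for 26 members, where 36.9% of all genes differed in either direction. This was the contrast of the 2 tissues in edgeR's quasi-likelihood test, in which tissue cannot be told apart from mice, kits and sequencing. The difference of log2 FCs, quadriceps minus fat, was 1.41 for Ulk1, 1.26 for Atg13 and 1.48 for Rb1cc1 in the ULK complex. In the class III PI3 kinase complex it was 0.80 for Atg14, 1.95 for Uvrag and 1.30 for Ambra1. Among genes of membrane expansion it was 1.25 for Wipi1, 1.62 for Wipi2, 1.09 for Atg2a and 1.09 for Atg2b. The conjugation enzymes had 0.75 for Atg4b, -1.52 for Atg4c, 1.47 for Atg7 and 0.64 for Atg12. The LC3 and GABARAP genes had 1.62 for Map1lc3a, 1.78 for Map1lc3b, 1.00 for Gabarap, 2.72 for Gabarapl1 and 0.84 for Gabarapl2. The cargo receptors had 2.59 for Sqstm1, 1.87 for Nbr1, 1.85 for Optn, 2.04 for Tax1bp1 and 1.28 for Calcoco1. Tfeb had 1.66 and Lamp2 1.39.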

How the results depend on the processing

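In quadriceps, the count of members called higher in KPC against no tumor was 26 and stayed between 21 (upper quartile scaling) and 30 (no FC threshold), and was 25 to 27 when each library was left out; members called lower numbered 2 to 3. Against KPC IL6KO the count was 25, with 21 to 30 over the settings and 24 to 26 without each library. Without KPC mouse 1 or 3, or no tumor mouse 2, Atg3 lost its call against no tumor, without KPC mouse 2 or 4 Lamp1 gained one, and without no tumor mouse 2 or KPC mouse 2 Ulk2 was called lower. Upper quartile scaling lost Pik3c3, Atg3, Atg4b, Map1lc3a and Gabarapl2, whose FCs were the smallest rises called. In KPC IL6KO against no tumor 0 members were called under each setting, and the same held in fat, except that DESeq2 called 1 member, Vmp1, higher in KPC against no tumor (FDR = 0.0125); the cause was not tested. The tissue difference held 26 members for KPC against no tumor (25 to 28 without each library, 27 by limma voom) and 26 for KPC against KPC IL6KO (24 to 27 without each library), and 0 for KPC IL6KO against no tumor. Of 1969 recomputed log2 FCs of members and other named genes, 1935 kept their direction and their side of the thresholds, 16 lost a call, 9 gained one and 9 turned sign. Under upper quartile scaling the log2 FC against no tumor became -0.20 for Becn1, -0.0336 for Atg9a, -0.0255 for Atg12, -0.19 for Atg16l1 and -0.0383 for Tfe3, and against KPC IL6KO -0.23 for Becn1, -0.0789 for Atg9a and -0.18 for Atg16l1; the cause was not tested. Without KPC mouse 3 that of Becn1 against KPC IL6KO was -0.0312 (-0.0312 to 0.122 without each library). Without KPC mouse 1, Map1lc3a lost its call against KPC IL6KO and Atg101 its call against no tumor, without KPC mouse 3 Gabarapl2 lost that against KPC IL6KO, and without KPC mouse 4 Atg3 gained one. In KPC IL6KO against no tumor quadriceps, at most 4 of the 39 members turned sign under a setting.

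With a replicate block the counts were 26 higher and 3 lower in KPC against no tumor quadriceps, 25 and 3 against KPC IL6KO, and 0 elsewhere. The numbers name different mice. The deviations of same-numbered mice from their group means correlated at -0.155 to 0.265 in quadriceps and -0.539 to 0.65 in fat. Such correlations cannot decide whether these mice share more than a number, and what lies behind the larger values in fat was not tested. Depth did not limit the members in quadriceps, where the lowest value was 0.986 CPM (Atg4c).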
